A study of Homo sapiens with 6 samples.

Results

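The genes examined here are 10 genes of the Hippo pathway, chosen by name from the 58735 genes of the deposited table: the coactivators YAP1 and WWTR1, the transcription factors TEAD1 and TEAD4, the kinases LATS1 and LATS2, and the target genes CYR61, CTGF, ANKRD1 and AMOTL2. CYR61 and CTGF are the older symbols of CCN1 and CCN2. All 10 had a row in the table, and all 10 had enough reads to be tested. The cells were labelled MG63, an established human osteosarcoma line, and were grown with no drug that the labels mention. One group, siFUBP1 (3 samples), received a small interfering RNA against FUBP1, which encodes a nuclear protein that binds single-stranded DNA and RNA, and the other, siMock (3 samples), received a control that the labels call siMock. RNA was taken 48 h after transfection, poly-A selected and sequenced. The knockdown was transient and was done in a single cell line, and nothing in the labels says whether the 3 samples of a group came from separate cultures, so the p-values below measure only the spread between these samples, which may be technical.

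In the Hippo pathway, a cascade of kinases ends in LATS1 and LATS2, which phosphorylate the coactivators YAP (from YAP1) and TAZ (from WWTR1) and keep them out of the nucleus. Unphosphorylated YAP and TAZ enter the nucleus, bind a TEAD transcription factor on DNA and switch on targets such as CYR61, CTGF and ANKRD1. The kinase LATS2 and the scaffold AMOTL2 are themselves targets of YAP, and both act against it. Cell contact, stiffness of the surroundings, serum and stress change the activity of the pathway mainly through phosphorylation, which RNA counts do not show.

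TEAD factors recognise the letters CATTCC, which read GGAATG on the other strand, and the promoters of CTGF, ANKRD1 and AMOTL2 are shown because they hold this motif and because the 3 target genes did not change alike. Each run is read in the direction of the gene, from 250 bases before the start site to 50 after it, from RefSeq on GRCh38.p14, with the motif on either strand in capitals. The promoter of CTGF is chr6:131951323-131951622 (minus strand), that of ANKRD1 is chr10:90921038-90921337 (minus strand), and that of AMOTL2 is chr3:134374398-134374697 (minus strand), from the second of its 2 listed start sites, since the other held 0 matches.
CTGF: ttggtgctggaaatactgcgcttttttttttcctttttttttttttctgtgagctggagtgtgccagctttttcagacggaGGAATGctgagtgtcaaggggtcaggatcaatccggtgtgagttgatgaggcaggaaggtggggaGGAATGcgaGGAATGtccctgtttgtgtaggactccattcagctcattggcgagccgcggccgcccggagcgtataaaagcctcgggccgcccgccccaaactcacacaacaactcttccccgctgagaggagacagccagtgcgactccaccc
ANKRD1: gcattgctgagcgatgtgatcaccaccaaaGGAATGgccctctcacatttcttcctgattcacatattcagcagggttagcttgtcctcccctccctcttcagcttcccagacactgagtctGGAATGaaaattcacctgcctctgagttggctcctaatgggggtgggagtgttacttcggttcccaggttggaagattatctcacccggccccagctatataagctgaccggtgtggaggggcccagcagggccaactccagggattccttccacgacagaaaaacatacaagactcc
AMOTL2: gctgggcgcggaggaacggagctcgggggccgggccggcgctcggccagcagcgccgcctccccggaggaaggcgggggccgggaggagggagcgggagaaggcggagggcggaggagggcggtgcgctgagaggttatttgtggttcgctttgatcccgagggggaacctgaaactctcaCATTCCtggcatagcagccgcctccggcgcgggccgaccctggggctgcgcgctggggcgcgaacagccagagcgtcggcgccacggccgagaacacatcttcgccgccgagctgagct
The first base of the motif lay at positions -169, -104 and -95 from the start site of CTGF, at -220 and -128 in ANKRD1, and at -69 in AMOTL2. Promoter sequences were found for 7 of the 10 genes. The promoters of YAP1 and LATS2 held 1 match each, those of WWTR1 and LATS1 held 0, and CYR61, TEAD1 and TEAD4 had no matching entry. Of 35116 promoters of the same length, 14.0% held at least 1 match to these letters, 1.37% at least 2 and 0.128% at least 3. A match describes the letters only and says nothing of binding in these cells.

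FUBP1 itself, the gene aimed at, was at 255 ± 18.5 CPM in the siMock samples (SD, n = 3) and fell to 46.9 ± 5.33 CPM after knockdown (SD, n = 3), so that 18.4% of the control level was left (edgeR adjusted p = 1.9e-17). CPM are counts scaled to a common library size after TMM normalization, a scaling between samples that assumes that the bulk of genes does not shift in one direction. The total count per sample was between 16309900 and 17484313, and no library stood apart from its group. The knockdown was followed by widespread change: by edgeR's quasi-likelihood F test, 60.2% of the 16116 genes tested passed an adjusted p of 0.05 (Benjamini-Hochberg over all genes tested), in equal shares of 30.1% in each direction. The even split depends on the scaling: with library size only, 5698 genes were higher and 4121 lower. With a correction for GC content and length, 4114 were higher and 5824 lower. After TMM, a log2 change above 1 in size beside the adjusted p left 17.3% of genes, 8.16% higher and 9.13% lower. For 63.9% of genes every sample of one group lay above every sample of the other. Because the cells were sequenced in bulk, a change in the share of cells of one kind and a change of RNA per cell cannot be told apart.

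The labelled cell type was checked against 9 markers of the osteoblast and mesenchymal lineage. Their summed level was 257 to 273 CPM in siMock and 235 to 263 CPM in siFUBP1, but only 3 of the 9, RUNX2, COL1A1 and VIM, had enough reads to be tested. COL1A2, a chain of type I collagen, and IBSP, bone sialoprotein, were at 0 in every sample, ALPL had at most 1 read and SPARC, osteonectin, at most 5, so several defining markers of the lineage were absent or near 0. The identity of the line thus rests on its label and was not tested here. RUNX2, the osteoblast transcription factor, rose by a log2 change of 3.15 from 0.448 ± 0.0564 CPM (SD, n = 3), and COL1A1 fell by 1.32 on the log2 scale (adjusted p = 4.53e-08 and 1.83e-13 by edgeR). Summed levels of other cell types were low: 4.42 to 5.58 CPM in siMock and 4.61 to 6.10 CPM in siFUBP1 for 5 epithelial markers, with KRT5 at 0. For 5 endothelial markers the sums were 3.20 to 5.18 CPM in siMock and 1.95 to 2.81 CPM in siFUBP1, most of it CDH5. The sum of the endothelial markers thus was lower in every siFUBP1 sample than in any siMock sample, and its part in the results below was not tested.

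Among the 10 Hippo genes, 5 rose (TEAD4, LATS1, CYR61, CTGF and ANKRD1), 2 fell (WWTR1 and TEAD1) and 3 did not pass the test (YAP1, LATS2 and AMOTL2). The 7 that passed stand beside a background of 60.2% over all genes. CYR61, CTGF and ANKRD1 rose and WWTR1 fell by more than 1 on the log2 scale, 4 of 10 genes beside 17.3% of all genes. Samples of one group all lay above those of the other in 7 of the 10 genes, beside 63.9% of all genes. The median log2 fold change of the 10 was 0.24, against 0.00 for all genes tested, and the median size of the change was 0.58 against 0.44. The 10 genes and the lists below were chosen with earlier results of these data known. Such comparisons therefore cannot show that these genes changed more than others.

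**Figure D1:**
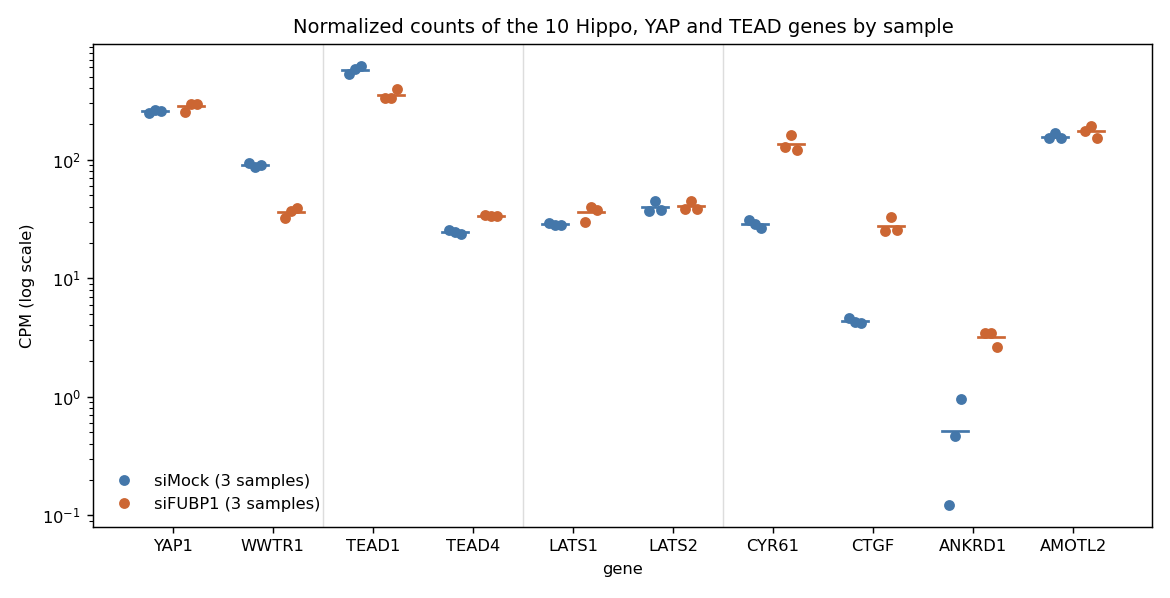
Normalized counts (CPM, log scale) of the 10 genes in each of the 3 siMock and 3 siFUBP1 samples, with a line at each group mean. The siFUBP1 points of CYR61, CTGF, ANKRD1 and TEAD4 lie above, and those of WWTR1 and TEAD1 below, all siMock points, LATS1 lies only just above them, and YAP1, LATS2 and AMOTL2 overlap.

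Of the 2 coactivators, WWTR1 fell and YAP1 did not pass the test. WWTR1 (ENSG00000018408, chromosome 3, 149517235 to 149736714, minus strand) stood at 93.3, 87.5 and 90.9 CPM in siMock replicates 1 to 3 and at 32.3, 36.7 and 39.4 CPM in siFUBP1 replicates 1 to 3. Every siFUBP1 sample was far under every siMock sample, and the spread within each group was small. Its log2 fold change was -1.33 (standard error 0.088, 95% interval -1.51 to -1.15, edgeR adjusted p = 1.22e-12), which left 39.9% of the siMock level. WWTR1 shares 795 exonic bases with WWTR1-AS1 on the opposite strand, which had 115 reads over the 6 samples, and since the library kit does not mark strand and the strand setting of the counting is not given in the sources used here, some reads could belong to either gene.

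YAP1 (ENSG00000137693, chromosome 11, 102110461 to 102233423, plus strand) stood at 247, 262 and 257 CPM in the siMock samples and at 254, 295 and 296 CPM in the siFUBP1 samples. The first siFUBP1 sample fell among the siMock samples and the other two stood above them. Over the groups this was a log2 fold change of 0.14 (standard error 0.079, 95% interval -0.02 to 0.305, edgeR adjusted p = 0.123). This value rests on its settings: without siFUBP1 replicate 1 it was 0.22 (edgeR adjusted p = 0.0308), and it turned to -0.05 after correcting for GC content and length (edgeR adjusted p = 0.488).

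Levels of different genes can be compared per length, in the deposited FPKM (reads scaled by gene length and by library size). On that scale the sum of YAP1 and WWTR1 was 50.7 ± 0.899 FPKM (SD, n = 3) in siMock and 48.8 ± 4.22 FPKM (SD, n = 3) in siFUBP1, a difference smaller than the spread in siFUBP1. The share of WWTR1 in this sum went from 21.0% ± 1.02 (SD, n = 3) to 8.74% ± 0.278 (SD, n = 3). In log2 units the ratio of WWTR1 to YAP1 was -1.824, -2.001 and -1.916 in siMock and -3.40, -3.43 and -3.33 in siFUBP1, a difference of -1.47. YAP1 thus was the more abundant coactivator transcript in all 6 samples, and the gap was wider in every siFUBP1 sample. The exact two-sided permutation test gave p = 0.10, the smallest that 3 samples against 3 allow, and 0.133 after adjustment over the 4 ratios tested, so this test could not pass the threshold.

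The TEAD genes encode the DNA-binding partners of YAP and TAZ. TEAD1 fell and TEAD4 rose. TEAD1 (ENSG00000187079, chromosome 11, 12674591 to 12944483, plus strand) stood at 524, 586 and 618 CPM in siMock and at 330, 333 and 392 CPM in siFUBP1. The groups were apart, although siMock replicate 1 and siFUBP1 replicate 3 lay nearer to each other than the rest. TEAD1 had a log2 fold change of -0.71 (standard error 0.086, 95% interval -0.89 to -0.54, edgeR adjusted p = 8.05e-08), so 61.1% of the siMock level was left.

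TEAD4 (ENSG00000197905, chromosome 12, 2959330 to 3040673, plus strand) stood at 25.6, 24.7 and 23.6 CPM in siMock and at 33.9, 33.4 and 33.7 CPM in siFUBP1. Replicates agreed closely and the groups did not overlap. TEAD4 had a log2 fold change of 0.45 (standard error 0.093, 95% interval 0.26 to 0.64, edgeR adjusted p = 1.64e-04), a level 1.36 times that of siMock. The remaining TEAD genes did not pass the test: TEAD2 had a log2 fold change of 0.01 (95% interval -0.24 to 0.26, edgeR adjusted p = 0.961) and TEAD3 one of 0.13 (95% interval -0.07 to 0.33, edgeR adjusted p = 0.25). TEAD2 shares 319 exonic bases with CD37 on the opposite strand, which had 397 reads over the 6 samples, beside 1470 for TEAD2.

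Summed over TEAD1 to TEAD4, the level was 85.4 ± 3.83 FPKM (SD, n = 3) in siMock and 69.5 ± 1.67 FPKM (SD, n = 3) in siFUBP1, and the groups, at 81.2 to 88.7 and 67.6 to 70.7 FPKM, did not overlap. TEAD1 made up 64.8% ± 2.46 (SD, n = 3) of the sum in siMock and 48.9% ± 4.09 (SD, n = 3) in siFUBP1. TEAD4 made up 12.6% ± 1.08 (SD, n = 3) and 21.2% ± 0.592 (SD, n = 3). TEAD1 remained the most abundant TEAD transcript in both groups, with a smaller share after knockdown. The log2 ratio of TEAD4 to TEAD1 was -2.18, -2.39 and -2.53 in siMock and -1.11, -1.14 and -1.36 in siFUBP1, a difference of 1.163 (exact two-sided permutation p = 0.10, adjusted 0.133).

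**Figure D2:**
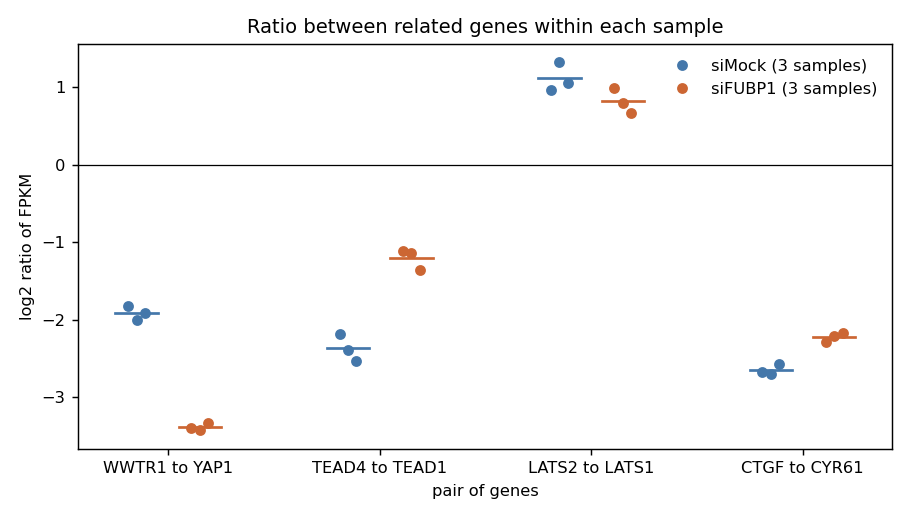
The log2 ratio of FPKM between related genes in each of the 3 siMock and 3 siFUBP1 samples, with a line at each group mean. The groups are apart for WWTR1 to YAP1 (difference -1.47), TEAD4 to TEAD1 (1.163) and CTGF to CYR61 (0.42, but 0.009 with 1 added to each FPKM value), and overlap for LATS2 to LATS1 (-0.30).

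Of the kinases that phosphorylate YAP and TAZ, LATS1 rose slightly and LATS2 did not pass the test. LATS1 (ENSG00000131023, chromosome 6, 149658153 to 149718256, minus strand) stood at 29.5, 27.9 and 28.2 CPM in siMock and at 29.8, 40.2 and 37.8 CPM in siFUBP1. The first siFUBP1 sample was barely above the highest siMock sample, and the other two were clearly higher. LATS1 rose by a log2 fold change of 0.33 (standard error 0.10, 95% interval 0.12 to 0.55, edgeR adjusted p = 0.00743), but this call rests on 1 library and on the settings: without siFUBP1 replicate 2 it was 0.25 (edgeR adjusted p = 0.0574), and with the GC and length correction 0.14 (edgeR adjusted p = 0.204). LATS1 shares 408 exonic bases with AL358852.1 on the opposite strand, which had 9 reads in all.

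LATS2 (ENSG00000150457, chromosome 13, 20973032 to 21061547, minus strand) stood at 37.2, 44.9 and 37.7 CPM in siMock and at 38.1, 44.9 and 38.7 CPM in siFUBP1. The groups covered the same range, with 1 higher sample in each. Its log2 fold change was 0.02 (95% interval -0.18 to 0.22, edgeR adjusted p = 0.86), and leaving out siMock replicate 1, siMock replicate 3 or siFUBP1 replicate 2 turned the sign, with values of -0.03, -0.02 and -0.05. Per length, LATS2 was the more abundant of the 2 kinases in every sample: the log2 ratio of LATS2 to LATS1 was 0.97, 1.32 and 1.05 in siMock and 0.99, 0.79 and 0.67 in siFUBP1. The difference in this ratio was -0.30 (exact two-sided permutation p = 0.20).

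The target genes CYR61, CTGF and ANKRD1 rose together, and AMOTL2 did not pass the test. CYR61 (ENSG00000142871, chromosome 1, 85580761 to 85583962, plus strand), a secreted matricellular protein, stood at 30.9, 28.9 and 26.3 CPM in siMock and at 128, 160 and 121 CPM in siFUBP1. The lowest siFUBP1 sample lay far above the highest siMock sample. At a log2 change of 2.25 (standard error 0.10, 95% interval 2.04 to 2.46, edgeR adjusted p = 2.5e-15), CYR61 reached 4.75 times its siMock level.

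CTGF (ENSG00000118523, chromosome 6, 131948176 to 131951373, minus strand), a relative of CYR61 that takes part in fibrosis, stood at 4.596, 4.237 and 4.227 CPM in siMock and at 24.9, 32.9 and 25.5 CPM in siFUBP1. Here too the groups lay far apart, and as for CYR61 the second siFUBP1 sample was the highest. The log2 fold change was 2.67 (standard error 0.14, 95% interval 2.38 to 2.96, edgeR adjusted p = 1.42e-14), or 6.37 times the siMock level. CTGF shares 195 exonic bases with AL133346.1 on the opposite strand, which had 3 reads in all. CYR61 remained the more abundant of the pair per length, and the log2 ratio of CTGF to CYR61 was -2.68, -2.70 and -2.57 in siMock and -2.29, -2.21 and -2.17 in siFUBP1, a difference of 0.42 (exact two-sided permutation p = 0.10, adjusted 0.133). With 1 added to each FPKM value this difference was 0.009 (exact two-sided permutation p = 0.90).

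ANKRD1 (ENSG00000148677, chromosome 10, 90912096 to 90921276, minus strand), a nuclear ankyrin repeat protein, was counted little, with 2, 8 and 15 reads in siMock and 58, 60 and 46 reads in siFUBP1. The siMock samples differed several-fold among themselves, yet all lay below the siFUBP1 samples. ANKRD1 had a log2 fold change of 2.61 (standard error 0.39, 95% interval 1.81 to 3.42, edgeR adjusted p = 2.72e-06). Its size was uncertain at this depth: it was 2.15 without siMock replicate 1 and 3.37 without siMock replicate 3, while limma gave 1.05 on log2(FPKM + 1), where changes of weakly expressed genes come out smaller (adjusted p = 1.58e-04).

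AMOTL2 (ENSG00000114019, chromosome 3, 134355874 to 134375479, minus strand), an angiomotin that binds YAP at cell junctions, stood at 152, 167 and 151 CPM in siMock and at 175, 192 and 153 CPM in siFUBP1. The third siFUBP1 sample lay within the siMock range and the other two above it. The log2 fold change was 0.14 (standard error 0.084, 95% interval -0.03 to 0.32, edgeR adjusted p = 0.143). Without siFUBP1 replicate 3 it was 0.23 (edgeR adjusted p = 0.0246), and with the GC and length correction 0.19 (edgeR adjusted p = 0.017). AMOTL2 shares 187 exonic bases with the pseudogene RPL39P5, which had 15 reads in all. Of the other angiomotins, AMOT was at 0 reads in every sample, and AMOTL1 fell by 1.01 on the log2 scale from 11.9 ± 0.217 to 5.92 ± 0.479 CPM (SD, n = 3, edgeR adjusted p = 1.12e-06).

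**Figure D3:**
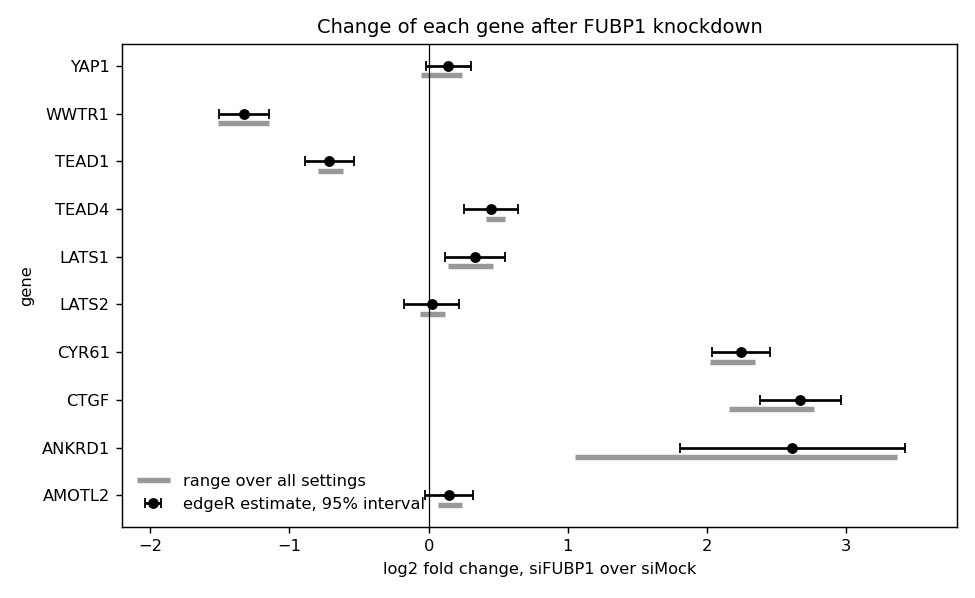
The log2 fold change of siFUBP1 over siMock for each gene by edgeR (point) with its 95% interval (black bar), and the range of the value over all settings tried (grey bar). CYR61, CTGF and ANKRD1 lie at 2.25, 2.67 and 2.61 and WWTR1 and TEAD1 at -1.33 and -0.71, while the intervals of YAP1, LATS2 and AMOTL2 hold 0.

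The order of the 10 genes by FPKM differed between the groups, with CYR61 and CTGF placed higher and TEAD1 and WWTR1 lower in siFUBP1. In siMock TEAD1 was first at 55.4 ± 4.55 FPKM (SD, n = 3), before YAP1 at 40.1 ± 1.22, AMOTL2 at 25.9 ± 1.56 and a group formed by CYR61, TEAD4 and WWTR1 at 11.6, 10.7 and 10.6 FPKM, whose neighbours overlapped. LATS2 at 7.08, LATS1 at 3.26, CTGF at 1.84 and ANKRD1 at 0.259 FPKM followed, each below all samples of the gene before it. In siFUBP1 CYR61 was first at 55.2 ± 8.68 FPKM (SD, n = 3), followed by YAP1 at 44.5 ± 3.82 and by TEAD1 and AMOTL2, which overlapped, at 34.0 and 28.8 FPKM. Next came TEAD4 at 14.7, CTGF at 11.8 and LATS2 at 7.23 FPKM, then WWTR1 and LATS1, which overlapped, at 4.27 and 4.13, and ANKRD1 at 1.60 FPKM.

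Further CCN genes, relatives of CYR61 and CTGF, moved in both directions. NOV (CCN3) rose from 8.44 ± 0.136 to 28.21 ± 1.202 CPM (SD, n = 3), a log2 change of 1.74 (edgeR adjusted p = 8.02e-13). WISP2 (CCN5), which lacks the C-terminal domain of its relatives, fell from 579 ± 49.8 to 265 ± 11.3 CPM (SD, n = 3), a log2 change of -1.13 (edgeR adjusted p = 6.96e-12), and its change was under 1 in size with the GC and length correction. WISP1 had 1 read and WISP3 8 reads over the 6 samples, and neither was tested.

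Of 17 further genes of a commonly used signature of 22 YAP and TEAD targets, all were tested, 10 rose, 4 fell and 3 did not pass, beside 30.1% of all genes in each direction. Their median log2 fold change was 0.43, against 0.00 for all genes, and 0.27 with limma on log2(FPKM + 1). GADD45A, a stress-induced gene of growth arrest, rose from 13.8 ± 2.07 to 109 ± 31.4 CPM (SD, n = 3, log2 change 2.99, edgeR adjusted p = 2.13e-04). F3, tissue factor, rose from 105 ± 13.8 to 377 ± 28.5 CPM (SD, n = 3, log2 change 1.85, edgeR adjusted p = 6.68e-15). IGFBP3, a binding protein of insulin-like growth factors that the study itself picked from these samples, had a log2 change of 2.07, NT5E, an ecto-enzyme that makes adenosine, one of 1.11, and FJX1, a secreted protein, one of 0.86. CRIM1, a membrane protein that binds growth factors, fell (-1.24), as did DOCK5 (-0.83) and ARHGEF17 (-0.46), both activators of small GTPases. FOXF2, a forkhead transcription factor named after its values were seen, fell slightly (-0.27, edgeR adjusted p = 0.0358, with overlapping groups). It missed the test under some alternatives, and 3 in place of 4 targets fell with DESeq2, library size only or limma. CCDC80, NUAK2 and TGFB2, also named after their values were seen, did not pass. Members of the signature thus did not all move in one direction. ARHGEF17 shares 966 exonic bases with AP002761.3 on the opposite strand, which had 194 reads in all, beside 8418 for ARHGEF17.

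**Figure D4:**
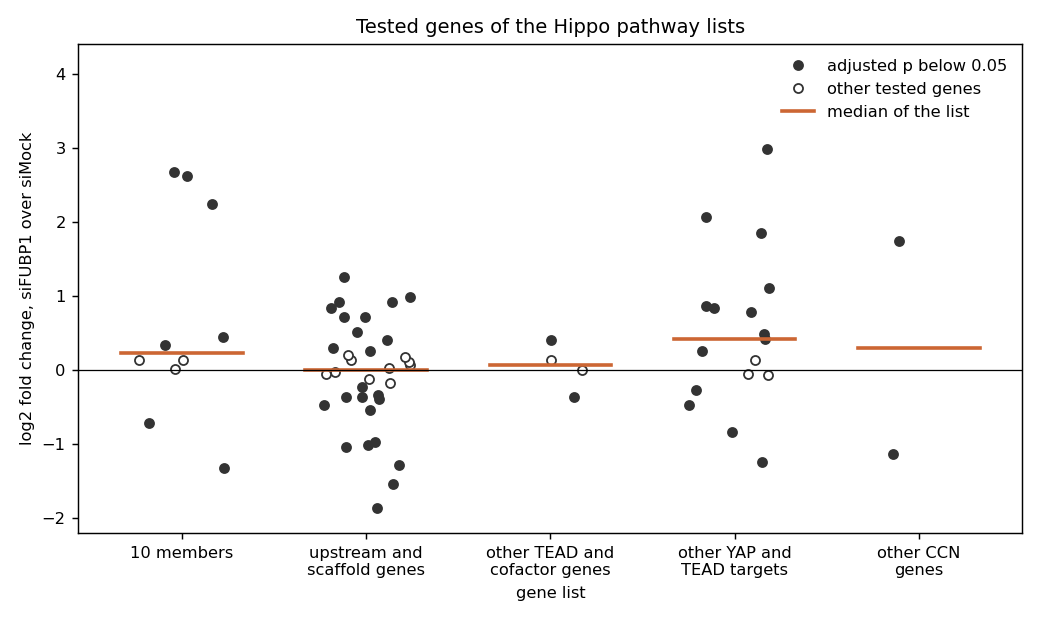
The log2 fold change of siFUBP1 over siMock for each tested gene of the 10 Hippo genes and 4 further lists, filled where the adjusted p was below 0.05, with a line at the median of the list. Upstream genes lie on both sides of 0 with a median of 0.00, and the further targets have a median of 0.43 with 4 genes that fell.

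Upstream of LATS1 and LATS2, a list of 38 kinases, scaffolds and junction proteins had 34 tested genes, of which 11 rose, 13 fell and 10 did not pass, beside 30.1% of all genes in each direction, so 70.6% of the list passed against 60.2% of all genes. The median was 0.00 and its sign turned with the settings. The 4 untested genes were AMOT and, named after their values were seen, MAP4K1, TNIK and DCHS1. Among the kinases near LATS, STK38L (NDR2) rose from 17.6 ± 0.487 to 41.9 ± 2.52 CPM (SD, n = 3, log2 change 1.25, edgeR adjusted p = 2.15e-11). MOB1A, the coactivator of LATS and NDR kinases, fell from 225 ± 13.5 to 77.4 ± 12.3 CPM (SD, n = 3, log2 change -1.54, edgeR adjusted p = 5.43e-13). MINK1, a MAP4K-family kinase, had a log2 change of -1.04.

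Scaffolds and junction proteins of the same list also moved in both directions. WTIP, an Ajuba family LIM protein that holds back LATS, fell from 29.4 ± 1.64 to 8.10 ± 0.424 CPM (SD, n = 3, log2 change -1.86, edgeR adjusted p = 2.63e-13), while its relative AJUBA rose from 160 ± 5.97 to 301 ± 43.7 CPM (SD, n = 3, log2 change 0.91, edgeR adjusted p = 1.63e-09). STRIP2, a subunit of the STRIPAK phosphatase complex that acts against the upstream kinases, had a log2 change of -1.28. WWC3, a KIBRA relative (log2 change 0.92), PTPN14, a phosphatase that binds YAP and is also a target of the signature (0.84), and FAT4, an atypical cadherin with 2.26 ± 0.795 CPM (SD, n = 3) in siMock (0.99), rose, and like MOB1A and AMOTL1, which fell, they are known to hold YAP back. Other genes of the list, named after their values were seen, moved in both directions too. STK38 (-0.97), STK4, which encodes the kinase MST1 (-0.54), NF2, which encodes merlin (-0.36), and TAOK2 (-0.36) fell. FRMD6 (0.72), TAOK3 (0.71), WWC2 (0.52), MAP4K4 (0.405), WWC1 (0.30) and MAP4K5 (0.26) rose. In the whole list 11 genes rose and 13 fell. Among TEAD cofactors, VGLL3 rose (0.40, edgeR adjusted p = 1.17e-04) and VGLL4 fell (-0.37, edgeR adjusted p = 0.00121), VGLL1 and VGLL2 were at 0 reads in every sample, and VGLL4 shares 1596 exonic bases with ATG7 on the opposite strand, which had 2877 reads in all.

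An siRNA can also lower other mRNAs that match the seed of its guide strand (bases 2 to 8). The study's oligonucleotide table lists 3 siRNAs against FUBP1, and the one that was sequenced is not named in the sources used here. The guide strands are shown without their overhang, with the seed in capitals.
RNAi#1: uAAACUGAaugcgaacacc
RNAi#2: uAAGAGGUuugucagcacc
RNAi#3: uUUCUUCUaugaguugccg
Sites of 8 bases, a match to the seed followed by an A, were sought in the 3′ UTR of 1 transcript per gene and found in WWTR1 and LATS2. They are shown with up to 10 bases on each side, the site in capitals. On GRCh38 the WWTR1 sites lie at chr3:149519245-149519252 (RNAi#2) and chr3:149518758-149518765 (RNAi#3) and the LATS2 site at chr13:20973113-20973120 (RNAi#1), all on the minus strand and in exon 8 of 8.
WWTR1, RNAi#2: tgtattcaatACCTCTTAtgtaaccaaa
WWTR1, RNAi#3: actctgttgtAGAAGAAAagaaggcttt
LATS2, RNAi#1: tctcaggaacTCAGTTTAactattattt
Of 12418 tested genes with a 3′ UTR, 4.37% held such a site for RNAi#1, 2.23% for RNAi#2 and 11.3% for RNAi#3. Matches of 7 bases with no A after them were found in YAP1 and LATS2 for RNAi#2 (1 each), CTGF and AMOTL2 for RNAi#1 (1 and 2) and WWTR1 for RNAi#3 (1). With the 8-base sites included, 19.9%, 12.2% and 19.4% of genes held a 7-base match for RNAi#1, RNAi#2 and RNAi#3. The search found no site of 7 bases in the transcripts used for TEAD1, TEAD4, LATS1, CYR61 and ANKRD1. For TEAD1 and TEAD4 the stretch searched was short, at 812 and 195 bases. The merged exons of TEAD1 span 10279 bases, and sites in its other transcripts were not sought. For WWTR1 the stretch searched was 3570 bases, and for LATS1 and YAP1, with no site of 8 bases, 3576 and 3483. The shares of genes with a site are over 3′ UTRs of all lengths and were not adjusted for length. WWTR1, which fell by 1.33 on the log2 scale, held an 8-base site for 2 of the 3 guides, and LATS2, at 0.02, held one for another, but the part of these sites in either value was not tested.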

How the data were processed

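RNA-seq of 6 samples was used, grouped by their titles, 3 siFUBP1 and 3 siMock. The authors deposited raw read counts per gene and FPKM values, which are the counts scaled by gene length and by a library factor for each sample. The submitters' processing notes list HISAT2 2.0.5, StringTie 1.3.3b, featureCounts 1.5.0-p3 and DESeq2 1.16.1 without roles. Columns of the authors' own comparison were not used: group mean signal, log2 fold changes and p-values, as deposited. Identifiers and coordinates of all 58735 genes match GENCODE 29 (GRCh38).

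Counts were compared with edgeR 4.0.16 (R 4.3.3): TMM, filterByExpr, robust quasi-likelihood fit, no covariate, Benjamini-Hochberg over 16116 genes, common dispersion 0.00684. "Rose" and "fell" mean an adjusted p below 0.05. The fit was tested on simulated counts: all changed genes were recovered (100% at log2 changes of 1 and of 2), with 17 false calls among 15911 genes. The simulation changed a small part of the genes, equally in both directions, all with a mean of at least 50 counts. Every gene had the same dispersion. It thus cannot show how the fit does at the low counts of ANKRD1 or with change as widespread as here. Ratios of FPKM (alternatively FPKM + 1) were compared by exact two-sided permutation tests. The intervals of the log2 fold changes rest on the edgeR fit and its dispersion. They thus cover the spread between samples as well as counting error. Total counts per sample were 16309900 to 17484313.

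The members and lists were chosen with earlier results of these data known. Named genes are the 10 members, FUBP1, TEAD2, TEAD3, the other angiomotins and CCN genes, and from each list up to 5 per direction with the largest change among genes that passed the test and whose groups did not overlap. Alternatives were DESeq2 1.42.0, limma 3.58.1 on log2(FPKM + 1) and log2(FPKM + 0.1), other scalings and filters, a correction for GC content and length (lowess, span 0.3), a block for the replicate number, and fits without each sample in turn. The study's ChIP-seq and animal experiments were not analysed here. The result of 1 further marker list is not reported here.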

Additional observations from a re-analysis of the deposited data

How the results depend on the processing

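FUBP1, WWTR1, TEAD1, TEAD4, CYR61, CTGF and ANKRD1 kept their direction and stayed past the test under all alternatives run, except that ANKRD1 had too few reads for the filter on a mean of at least 50 counts. YAP1 had a log2 fold change of 0.185 with upper-quartile factors and 0.24 with library size only, both past the test, and of -0.054 with the GC and length correction and -0.056 with the replicate block added to it. LATS1 missed the test with limma on log2(FPKM + 1) at 0.26, with the GC and length correction at 0.14, and with the block and that correction at 0.136. LATS2 turned to -0.061 with the correction and -0.059 with the block and the correction. AMOTL2 passed the test with library size only at 0.242, with the correction at 0.193 and with the block and the correction at 0.191. Leaving out each sample in turn gave 0.106 to 0.222 for YAP1, 0.251 to 0.462 for LATS1, -0.051 to 0.117 for LATS2 and 0.069 to 0.228 for AMOTL2. Of the further TEAD genes and cofactors, 2 in place of 1 were higher with library size only. Ratios of FPKM + 1 differed by -1.291 for WWTR1 to YAP1, 1.113 for TEAD4 to TEAD1 and 0.009 for CTGF to CYR61. The cause of these shifts was not tested.

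The median of the upstream list, 0.002, was -0.026 with DESeq2, -0.03 with no filter on low counts, -0.092 with the correction, -0.09 with the block and the correction, and -0.021 to 0.041 without single samples. Higher upstream genes with a log2 change above 1 numbered 1, and 0 to 4 over the alternatives, with 2 without siMock replicate 2 and 3 without siFUBP1 replicate 3. Lower ones numbered 5, and 3 with upper-quartile factors or library size only and 1 with limma on log2(FPKM + 1). Both directions together made 17.6% of the list, beside 17.3% of all genes.

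Same-numbered samples of the 2 groups correlated at -0.00163, 0.0163 and 0.113 in their deviations from the group means, and not every sample correlated best with its own number, so the numbers were not taken as pairs. With the replicate block, 10014 in place of 9695 genes passed the test, and the log2 fold changes of WWTR1, CYR61 and CTGF were -1.329, 2.24 and 2.665, with the same 7 members called. Depth limits ANKRD1 most, at 2 to 15 reads in siMock.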
